A study of Arabidopsis thaliana with 6 samples.

Results

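The genes described here are 4 dark-inducible genes and 5 trehalose phosphate synthase genes of Arabidopsis thaliana, chosen by name from the deposited table of transcript levels, with antisense loci left out. Of the 9 genes named, 8 were found among the 32594 loci of the table: ASN1 (DIN6), SEN1 (DIN1), DIN10, BGLU30 (DIN2), TPS5, TPS8, TPS10 and TPS11. TPS9 (AT1G23870) was not analysed here. RNA came from whole seedlings of 3 genotypes, with 2 libraries each: Col-0 (the wild type), apc8-1 (a mutant of APC8, which belongs to the ubiquitin ligase that drives the cell cycle, the anaphase promoting complex) and nrpe1-12 (a mutant of NRPE1, the main subunit of the plant-specific RNA polymerase V of RNA-directed DNA methylation). All seedlings were untreated, 14 days old, and grown on MS plates at 22 degrees C with 16 hours of light and 8 hours of dark a day. The kind of lesion in either allele, the number of seedlings pooled, the sugar in the plates and the hour of harvest are not given in the sources used here. Nothing says that the libraries of a genotype came from separate cultures, and the p-values therefore reflect the spread between these samples alone, which may be technical.

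Plants make sugar by day and live on stored starch at night, and a plant kept in the dark runs short of carbon. The protein kinase SnRK1 is then active and, partly through bZIP transcription factors of the C and S1 groups, raises transcripts for the use of amino acids and cell wall sugars as fuel. Trehalose 6-phosphate, made by TPS1, signals that sucrose is plentiful and holds SnRK1 back. The class II proteins, TPS5 to TPS11, resemble TPS1 but are regarded as regulators rather than as the main synthase. In published work, transcripts of the dark-inducible genes and of TPS8 to TPS11 are high when sugar is short, while that of TPS5 is high when sugar is supplied.

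Levels are in FPKM as the authors deposited them, that is, fragments scaled by transcript length and by the mapped fragments of each library. From the steps between low values, 1 FPKM was estimated to stand for 13.96 to 19.16 fragments per kilobase. The 8 genes then had between an estimated 196 fragments (TPS5) and 8933 fragments (DIN10) in a library, so counting error was at most 7.15% for these 8. Some genes of the lists further below had far fewer, such as BAM5 with 11 fragments in its lowest library (30.2%), TPPD with 15 (25.8%) and GPT2 with 30 (18.3%). The higher library of a genotype exceeded the lower by a factor of 1.00 to 1.24 for these genes. APC8 transcript (1.29 to 1.93 FPKM in the 6 libraries) and NRPE1 transcript (2.71 to 3.29 FPKM in Col-0 and apc8-1, 5.94 and 6.46 in the libraries labelled nrpe1-12) cannot check the genotypes, since the lesions are not given. Changes are differences of log2(FPKM + 1), which understate those of low genes. They were tested with limma in 1 fit of all 6 libraries over 17802 loci, and a locus was called at a Benjamini-Hochberg adjusted p below 0.05. With 2 libraries a group, the smallest p of an exact two-sided permutation test is 0.333, so the p-values rest on the spread pooled over loci.

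Seedlings of both mutants had more transcript of ASN1, DIN10, TPS8 and TPS11 than Col-0, and less of BGLU30 and TPS5. In apc8-1 all 8 genes were called, 6 of them higher and 2 lower, where 14.1% of all tested loci were called higher and 16.1% lower. In nrpe1-12, 5 were called higher and 2 lower, where 13.5% of all tested loci were called higher and 12.8% lower. In either direction 30.2% of tested loci were called in apc8-1 and 26.3% in nrpe1-12. The median change of the 8 genes was 0.81 in apc8-1 and 0.60 in nrpe1-12 on the log2 scale, beside 0.01 and -0.01 over all tested loci. Both comparisons share the Col-0 libraries, so they are not independent of each other. The genes were chosen with earlier results of these data known, so the counts beside the shares of all loci are descriptions only.

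**Figure D1:**
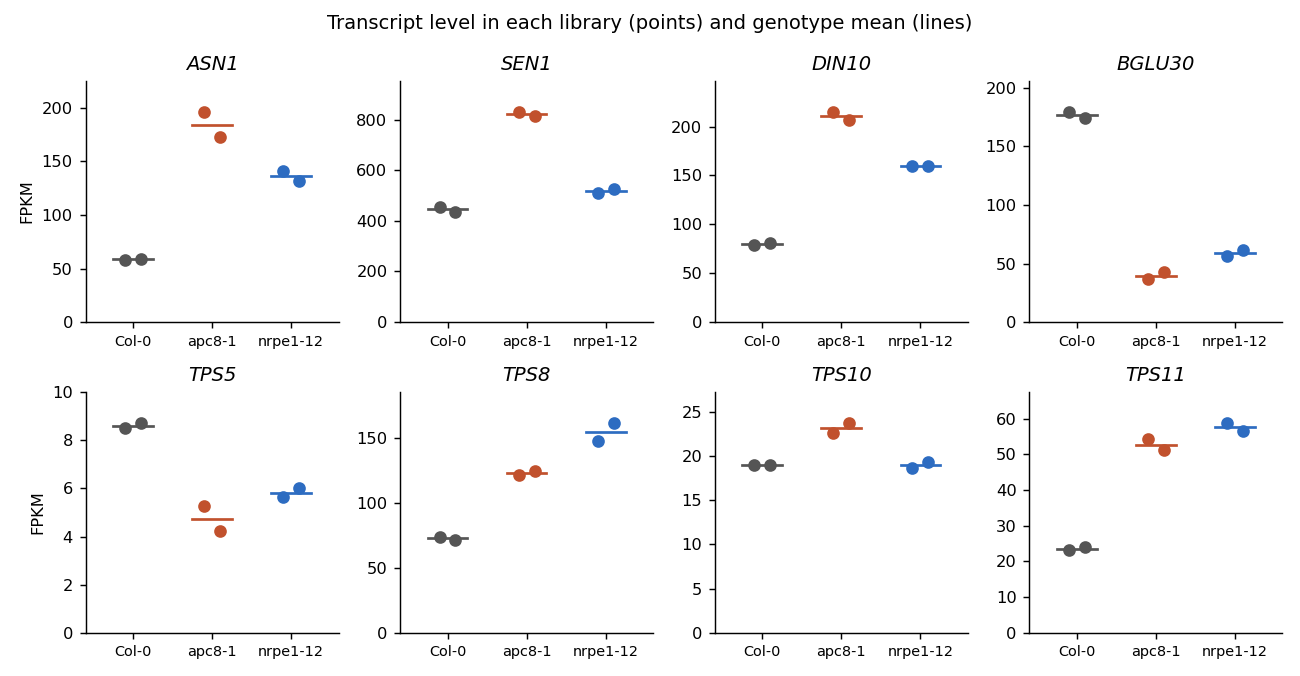
FPKM (vertical axes, each from 0) of the 8 genes in each of the 6 libraries (points), with the genotype mean as a line. For ASN1, DIN10, TPS8 and TPS11 all 4 mutant libraries lie above both Col-0 libraries, and for BGLU30 and TPS5 all 4 lie below. The share of all tested loci whose genotypes separate without overlap was not counted, here or for the single genes below.

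ASN1 (AT3G47340, TAIR10 chromosome 3, 17437884 to 17441243, minus strand) encodes a glutamine-dependent asparagine synthetase. Asparagine carries much nitrogen for little carbon, and ASN1 is a widely used marker of sugar shortage. The Col-0 libraries held 58.3 and 59.0 FPKM of it, those of apc8-1 held 196 and 173, and those of nrpe1-12 held 141 and 132. The 3 genotypes did not overlap, with Col-0 lowest and apc8-1 highest. ASN1 rose 3.14-fold in apc8-1 (log2 fold change 1.63, SE 0.07, adjusted p = 4.94e-06) and 2.33-fold in nrpe1-12 (log2 fold change 1.20, SE 0.07, adjusted p = 3.33e-05). Ordered by the difference of log2(FPKM + 1), the increase in apc8-1 was number 39 of the 17802 tested loci. That order favours abundant genes, since the scale understates changes of low ones.

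DIN10 (AT5G20250, chromosome 5, 6833659 to 6836782, plus strand) encodes a member of the raffinose synthase family, also called RS6. Col-0 had 79.1 and 80.6 FPKM, apc8-1 had 214 and 207, and nrpe1-12 had 160 and 159. The order of the genotypes was that of ASN1, again without overlap. DIN10 rose 2.64-fold in apc8-1 (log2 fold change 1.39, SE 0.05, adjusted p = 2.63e-06) and 2.00-fold in nrpe1-12 (log2 fold change 0.99, SE 0.05, adjusted p = 1.95e-05).

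SEN1 (AT4G35770, chromosome 4, 16944941 to 16946192, plus strand) encodes a rhodanese-domain protein and is a marker of darkness and senescence. It was the most abundant of the 8 genes, with 455.9 and 435.5 FPKM in wild-type seedlings, above 99.2% of tested loci. Levels were 828 and 815 FPKM for apc8-1, against 512 and 524 for nrpe1-12. The apc8-1 libraries stood well apart, while those of nrpe1-12 were only slightly above Col-0. SEN1 rose 1.84-fold in apc8-1 (log2 fold change 0.88, SE 0.06, adjusted p = 2.57e-05). In nrpe1-12 it rose 1.16-fold (log2 fold change 0.22, SE 0.06, adjusted p = 0.0229). That call was lost under 7 of 15 alternatives (adjusted p = 0.0182 to 0.792 over all 15), among them each omission of a Col-0 or nrpe1-12 library, and with quantile normalization the value was -0.02.

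BGLU30 (AT3G60140, chromosome 3, 22216672 to 22220824, plus strand) encodes a beta-glucosidase. It is named for its induction in the dark, and is also known to rise when sulfur is short. Wild-type libraries held 179 and 174 FPKM, whereas apc8-1 held 36.4 and 43.1 and nrpe1-12 held 56.7 and 61.8. The order of the genotypes was the reverse of that of ASN1 and DIN10. BGLU30 fell to 0.225 of its Col-0 level in apc8-1 (log2 fold change -2.13, SE 0.09, adjusted p = 3.23e-06) and to 0.336 in nrpe1-12 (log2 fold change -1.56, SE 0.09, adjusted p = 2.32e-05). In the same kind of order, with the same limit, these decreases were number 105 and number 88 of the tested loci. In Col-0 it was second only to SEN1 among the 8 genes, whereas in apc8-1 its mean of 39.8 FPKM lay below those of ASN1, DIN10, TPS8 and TPS11.

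**Figure D2:**
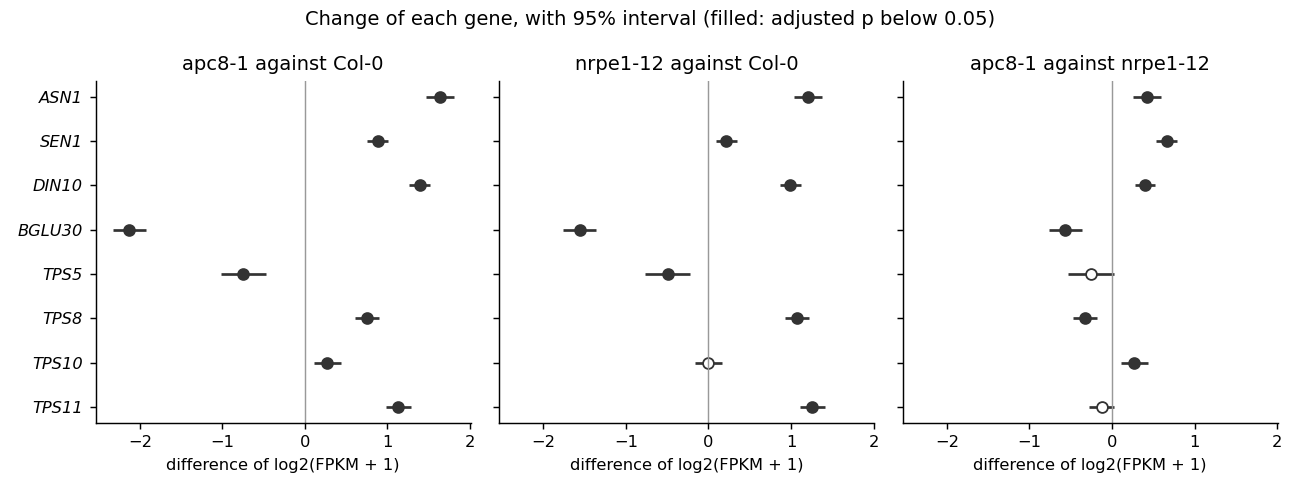
Difference of log2(FPKM + 1) of each gene (horizontal axis) with its 95% interval from limma, in the 3 comparisons; filled points have an adjusted p below 0.05 and open points do not. BGLU30 and TPS5 lie left of 0 against Col-0 in both mutants, and TPS10 in nrpe1-12 lies at 0.

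TPS8 (AT1G70290, chromosome 1, 26471078 to 26474805, minus strand) was the most abundant of the class II genes. Col-0 held 73.9 and 72.0 FPKM, apc8-1 held 122 and 125, and nrpe1-12 held 148 and 162. Here nrpe1-12 was the highest genotype, without overlap. TPS8 rose 1.69-fold in apc8-1 (log2 fold change 0.75, SE 0.06, adjusted p = 1.07e-04) and 2.12-fold in nrpe1-12 (log2 fold change 1.07, SE 0.06, adjusted p = 2.98e-05).

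TPS11 (AT2G18700, chromosome 2, 8109043 to 8112010, plus strand) was at 23.1 and 23.9 FPKM for the wild type, at 54.2 and 51.3 for apc8-1, and at 58.8 and 56.6 for nrpe1-12. All 4 mutant libraries were above both Col-0 libraries and close to one another. TPS11 rose 2.24-fold in apc8-1 (log2 fold change 1.13, SE 0.065, adjusted p = 1.64e-05) and 2.45-fold in nrpe1-12 (log2 fold change 1.26, SE 0.065, adjusted p = 1.59e-05).

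TPS10 (AT1G60140, chromosome 1, 22176934 to 22180875, minus strand) was at 19.0 FPKM for both wild-type libraries, at 22.6 and 23.7 for apc8-1, and at 18.7 and 19.35 for nrpe1-12. The apc8-1 libraries were slightly above the rest, and nrpe1-12 overlapped with Col-0. In apc8-1 TPS10 rose 1.22-fold (log2 fold change 0.27, SE 0.07, adjusted p = 0.0225), a call lost under 6 of 16 alternatives (adjusted p = 0.0179 to 0.108 over all 16), among them the replicate block (adjusted p = 0.0541) and the omission of either Col-0 library or of apc8-1 replicate 2. In nrpe1-12 its change was not called (adjusted p = 0.999), with a 95% interval of 0.892-fold to 1.12-fold.

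TPS5 (AT4G17770, chromosome 4, 9876238 to 9880254, plus strand) was the least abundant of the 8 genes, near the middle of all tested loci in Col-0. Col-0 held 8.49 and 8.71 FPKM, apc8-1 held 5.25 and 4.23, and nrpe1-12 held 5.63 and 6.02. It was the only one of these class II genes with lower levels in the mutants, where all 4 libraries were below Col-0. TPS5 fell to 0.551 of its Col-0 level in apc8-1 (log2 fold change -0.75, SE 0.12, adjusted p = 0.00233) and to 0.677 in nrpe1-12 (log2 fold change -0.49, SE 0.12, adjusted p = 0.0177). The nrpe1-12 call was lost when any 1 of the Col-0 or nrpe1-12 libraries was left out (adjusted p = 0.0539 to 0.0937, and 0.00663 to 0.0937 over all 15 alternatives).

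**Figure D3:**
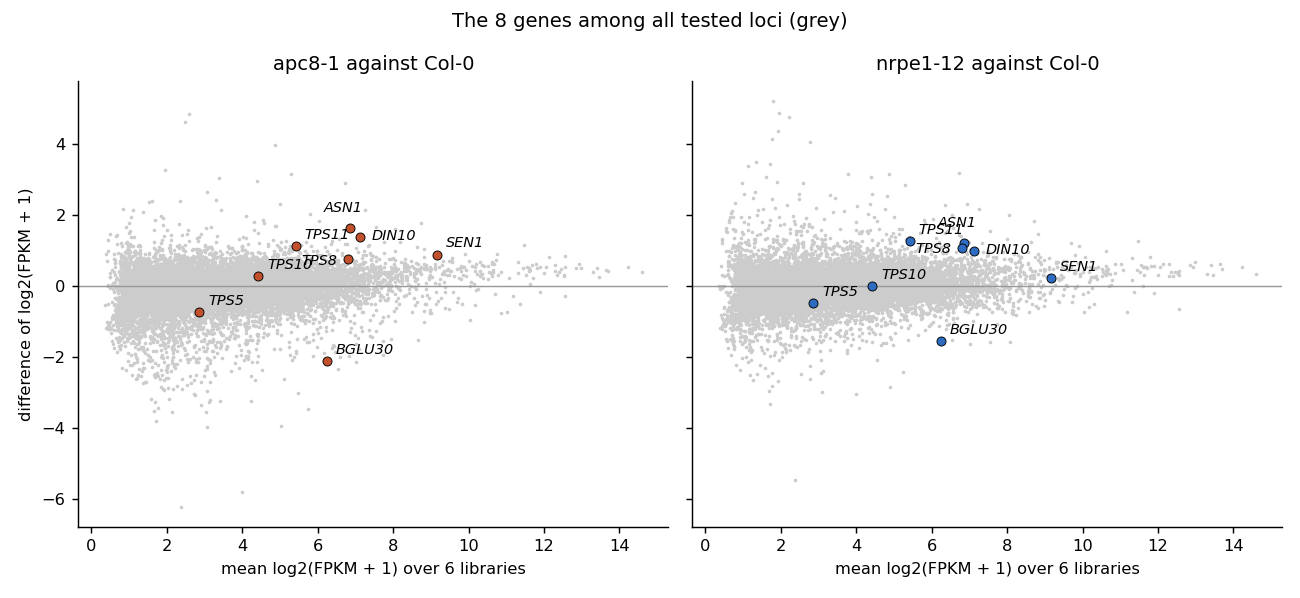
Mean log2(FPKM + 1) over the 6 libraries (horizontal axis) and difference of log2(FPKM + 1) against Col-0 (vertical axis) of all 17802 tested loci (grey) and the 8 genes (coloured), for apc8-1 on the left and nrpe1-12 on the right. ASN1 is number 39 of all loci by size of increase in apc8-1 and number 198 in nrpe1-12, BGLU30 is number 105 and number 88 by size of decrease, and TPS10 lies within the cloud. These orders use the vertical axis, which understates changes of low genes.

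Between the mutants, 4 of the 8 genes were called higher in apc8-1 than in nrpe1-12 and 2 lower, where 7.26% of all tested loci were called higher and 11.4% lower (18.7% in either direction). The difference of SEN1 was 1.59-fold (log2 fold change 0.66, SE 0.06, adjusted p = 1.90e-04). ASN1 was 1.35-fold (adjusted p = 0.00589) and DIN10 1.32-fold (adjusted p = 0.00190) higher in apc8-1. BGLU30 was lower in apc8-1, at 0.671 of its nrpe1-12 level (log2 fold change -0.57, adjusted p = 0.00353). TPS8 went the other way from the dark-inducible genes that rose: it was lower in apc8-1, at 0.795 of its nrpe1-12 level (log2 fold change -0.33, adjusted p = 0.00981). That call was lost without nrpe1-12 library b (adjusted p = 0.0640) and without the intensity trend (adjusted p = 0.0548; 0.00863 to 0.0640 over all 15 alternatives). TPS10 was 1.22-fold higher in apc8-1 (adjusted p = 0.0333), a call lost when any 1 of the 6 libraries was left out (adjusted p = 0.0644 to 0.134) and under 8 of 15 alternatives in all (adjusted p = 0.0249 to 0.134). TPS11 and TPS5 were not called (adjusted p = 0.229 and 0.188), with 95% intervals of 0.826-fold to 1.02-fold and 0.693-fold to 1.01-fold.

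The 6 class II genes with values, TPS6 and TPS7 included, summed to 171 and 168 FPKM for the wild type, 253 and 263 for apc8-1, and 277 and 298 for nrpe1-12. TPS8 made up 43.3 and 42.7% of that sum for the wild type, 48.0 and 47.4% for apc8-1, and 53.3 and 54.4% for nrpe1-12. The share of TPS11 was 13.6 and 14.2% for the wild type, 21.4 and 19.5% for apc8-1, and 21.2 and 19.0% for nrpe1-12. TPS5 went from 4.98 and 5.17% in Col-0 to 2.07 and 1.61% in apc8-1 and 2.03 and 2.02% in nrpe1-12. The summed level was thus higher in every mutant library than in Col-0, and its makeup leaned further to TPS8 and TPS11. These sums rest on the same values as the tests above. Fragments of close relatives in this family cannot be told apart in such a table, and no source used here says how the authors' counting divided them.

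**Figure D4:**
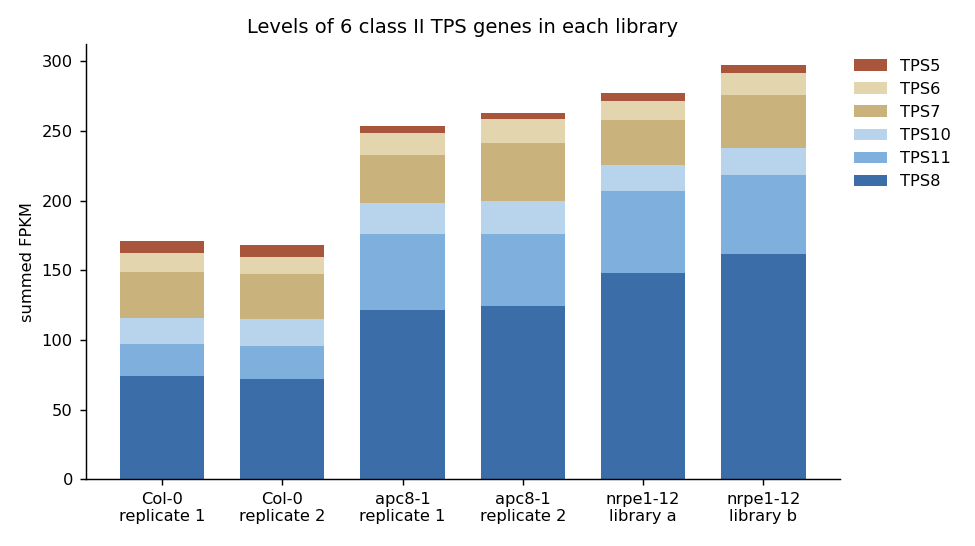
Summed FPKM (vertical axis, from 0) of 6 class II TPS genes in each library, stacked by gene. The sums are 171 and 168 FPKM in Col-0 and 253 to 298 in the mutants, with TPS8 as the largest block in every library.

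No other tested gene of trehalose phosphate metabolism rose as much as TPS8 or TPS11 in either mutant, and some fell. TPS1, the synthase itself, averaged 9.68 FPKM in the wild type, 10.8 for apc8-1 and 10.95 for nrpe1-12, and was called in neither (adjusted p = 0.312 and 0.248). TPS6 (adjusted p = 0.0659 in apc8-1) and TPS7 were called in neither mutant either, and TPS2, TPS3 and TPS4 were too low to test. Over all tested loci, 14.1% were called higher and 16.1% lower in apc8-1, and 13.5% higher and 12.8% lower in nrpe1-12. The counts of this list and of those below stand beside these shares. All these lists were chosen with earlier results of these data known, so a difference from the shares may come in part from that choice. Of 7 tested trehalose phosphate phosphatase and trehalase genes, 4 phosphatase genes fell in apc8-1 and none rose, with a median of -0.43 (-0.03 in nrpe1-12). TPPD went from a mean of 2.04 FPKM down to 0.789 (log2 fold change -0.76), with an adjusted p of 0.00539 that rose to 0.0506 without Col-0 replicate 1. TPPJ, TPPI and TPPE fell by 0.63, 0.51 and 0.43 on the log2 scale. Of the 4 decreases only 1 was called without Col-0 replicate 1, without Col-0 replicate 2 or without apc8-1 replicate 1, and only 1 without the filter on low values. TPPE lost its call under 10 of 16 alternatives, among them the replicate block, the fit of the 2 genotypes alone and the omission of either nrpe1-12 library. In nrpe1-12, TPPA rose by 0.52 (adjusted p = 0.00745) and TPPI fell by 0.52 on the log2 scale (adjusted p = 0.0236), the latter not without Col-0 replicate 2, without nrpe1-12 library a or without the filter.

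Among 9 SnRK1 subunit and activating kinase genes, 1 rose and 1 fell in each mutant, a smaller share than over all tested loci in either direction. The median of the 9 genes was -0.12 in apc8-1 and -0.13 in nrpe1-12. With organelle and rRNA genes removed before scaling, 2 were lower in apc8-1 and 4 in nrpe1-12, and when a library was left out 0 to 1 were lower in apc8-1 and 0 to 2 in nrpe1-12. The gene that rose in both was KINB1, which encodes a beta subunit, from 31.1 FPKM in Col-0 to 59.7 in apc8-1 (log2 fold change 0.92, adjusted p = 1.21e-04) and 51.2 in nrpe1-12 (log2 fold change 0.70, adjusted p = 5.32e-04). The catalytic subunit gene KIN10 was at 33.6, 30.3 and 30.2 FPKM and was called in neither mutant (adjusted p = 0.127 and 0.125). KINB3, a further beta subunit gene, fell in apc8-1 (log2 fold change -0.25, adjusted p = 0.0328), a call lost when either library of Col-0 or of apc8-1 was omitted, without the intensity trend and in the replicate block. GRIK2, which encodes an activating kinase, fell in nrpe1-12 (log2 fold change -0.46, adjusted p = 0.00924), a call lost without Col-0 replicate 1 or nrpe1-12 library b.

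Of 7 tested C and S1 group bZIP genes, 3 rose in each mutant: BZIP63, BZIP9 and BZIP1. The median of the 7 genes was -0.17 in apc8-1 and 0.10 in nrpe1-12. None was called lower in apc8-1 in limma, although 3 were with organelle and rRNA genes removed, and 1 was with quantile normalization, under either other filter on low values or without Col-0 replicate 2. In nrpe1-12, 2 fell. BZIP63, a C group factor known as an SnRK1 substrate, rose from 24.6 FPKM in Col-0 to 40.5 in apc8-1 (log2 fold change 0.70, adjusted p = 2.77e-04) and 42.6 in nrpe1-12 (log2 fold change 0.77, adjusted p = 2.09e-04). BZIP1, an S1 group factor known to be induced by sugar shortage, had log2 fold changes of 0.63 and 0.80 (adjusted p = 0.00166 and 5.87e-04). BZIP44 fell in nrpe1-12 (log2 fold change -0.82, adjusted p = 0.00956), though not without Col-0 replicate 2 or nrpe1-12 library b. BZIP11 fell there as well (log2 fold change -0.55, adjusted p = 0.0357), a call lost without Col-0 replicate 1, without either nrpe1-12 library or without the filter on low values.

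A list of 25 other genes known to be induced by darkness or sugar shortage had 24 tested members. In apc8-1, 15 rose and 3 fell, with a median of 0.45, and in nrpe1-12, 12 rose and 2 fell, with a median of 0.29. When a library was left out, the number called higher ranged from 13 to 15 in apc8-1 and from 9 to 12 in nrpe1-12. STP1, a hexose transporter gene repressed by sugar, rose from 79.5 FPKM in Col-0 to 169 in apc8-1 (log2 fold change 1.08, adjusted p = 2.00e-05) and 160 in nrpe1-12 (log2 fold change 1.00, adjusted p = 4.29e-05). BXL1, a gene of cell wall xylose and arabinose release, rose from 99.9 to 222 and 196 FPKM. MCCA, which encodes a subunit of methylcrotonyl-CoA carboxylase in leucine breakdown, rose from 22.3 to 54.7 FPKM in apc8-1 (log2 fold change 1.26) and to 34.4 in nrpe1-12 (log2 fold change 0.61), and was called higher in apc8-1 than in nrpe1-12 (adjusted p = 8.96e-04). RZPF34, a zinc finger protein gene, rose by 0.98 and 1.02 on the log2 scale. Of the proline dehydrogenase genes, PRODH2 fell in both mutants (log2 fold changes -1.94 and -0.88). PRODH1 rose in nrpe1-12 (log2 fold change 0.62) and fell in apc8-1 (log2 fold change -0.33), where the call was lost without Col-0 replicate 1.

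Genes known to be induced by sugar were lower in apc8-1. Of 6 tested, 5 fell there and none rose, with a median of -1.16, while in nrpe1-12, 3 fell and none rose, with a median of -0.43. GPT2, a glucose-6-phosphate transporter gene of plastids, fell from 19.5 FPKM in Col-0 to 1.45 in apc8-1 (log2 fold change -3.07, adjusted p = 2.14e-06) and 4.98 in nrpe1-12 (log2 fold change -1.78, adjusted p = 3.90e-05). CWINV1, a cell wall invertase gene, fell from 26.1 to 8.45 FPKM in apc8-1 (log2 fold change -1.53) and was at 26.5 in nrpe1-12 (adjusted p = 0.914). BAM5, a beta-amylase gene, had log2 fold changes of -1.31 and -0.77, and APL3, a gene of starch synthesis, of -1.02 and -0.66. In nrpe1-12 the BAM5 call was lost without Col-0 replicate 1, and the APL3 call without Col-0 replicate 2 or nrpe1-12 library b. SUC1, a sucrose transporter gene, fell in apc8-1 (log2 fold change -0.55), and the table merges APL4 with a neighbouring gene.

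**Figure D5:**
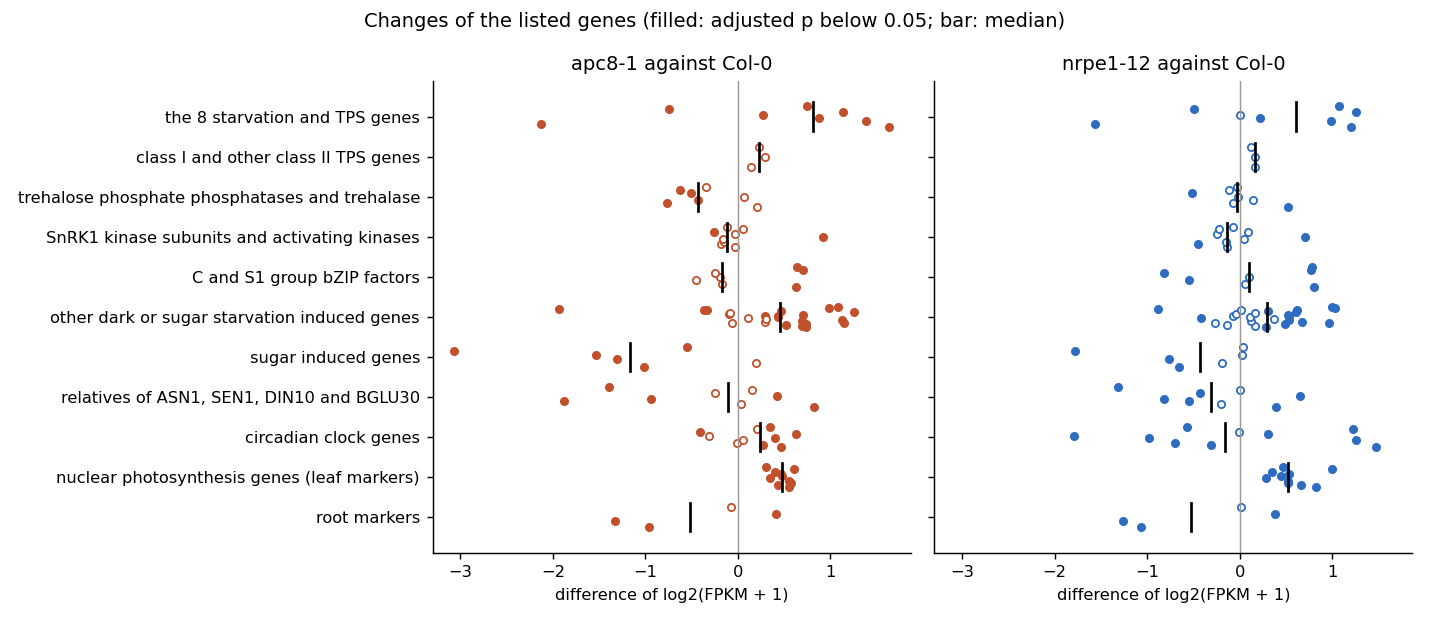
Difference of log2(FPKM + 1) against Col-0 (horizontal axis) of every tested gene of each list (points; filled where the adjusted p is below 0.05) with the median of the list (bar), for apc8-1 on the left and nrpe1-12 on the right. The starvation induced list leans right and the sugar induced list left, with medians of 0.45 and -1.16 in apc8-1 and 0.29 and -0.43 in nrpe1-12. The lists were chosen with earlier results of these data known.

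Relatives of the dark-inducible genes did not all follow them. ASN2, a second asparagine synthetase gene, rose from 17.8 FPKM in Col-0 to 32.4 in apc8-1 (log2 fold change 0.83, adjusted p = 3.43e-04) and to 23.5 in nrpe1-12 (log2 fold change 0.39, adjusted p = 0.0140), the latter not without Col-0 replicate 1 or either nrpe1-12 library. ASN3 was at 4.95, 5.08 and 4.17 FPKM and was called in neither mutant. STR18, which encodes a rhodanese-domain relative of SEN1, fell from 59.8 to 22.1 FPKM in apc8-1 and 23.4 in nrpe1-12 (log2 fold changes -1.40 and -1.31). RS2, of the raffinose synthase family like DIN10, rose in both mutants (log2 fold changes 0.42 and 0.65). BGLU28, a beta-glucosidase gene that, like BGLU30, is known to rise when sulfur is short, fell from 125 FPKM in Col-0 to 33.1 in apc8-1 (log2 fold change -1.88, adjusted p = 1.11e-06) and 85.1 in nrpe1-12 (log2 fold change -0.54, adjusted p = 4.07e-04). In total 2 of 8 tested relatives rose and 3 fell in apc8-1, with a median of -0.11. In nrpe1-12, 2 rose and 4 fell, with a median of -0.32. Of these 4, RS5 lost its call under 10 of 14 alternatives, the omission of any 1 library included.

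Loci with the profile most like that of a gene were found by Euclidean distance over the 6 libraries of log2(FPKM + 1), centred on Col-0, for the 5 genes that changed by at least 1 on the log2 scale in a mutant. Nearest to ASN1 were EXL5 (AT2G17230), with a distance of 0.156, DIC2 (AT4G24570) and AT2G32870. EXL5 was at 13.1 and 15.0 FPKM for the wild type, at 49.8 and 44.2 for apc8-1, and at 35.3 and 34.2 for nrpe1-12. Nearest to DIN10 were HAT1, CIPK3 and FBA5, and nearest to BGLU30 were AT3G07600, CYP708A2 and AT4G26010. Nearest to TPS8 were AT1G67900, a locus that merges AT4G19530 and AT4G19540, and AT1G68670. Nearest to TPS11 were CA2 (AT5G14740), a carbonic anhydrase gene, with a distance of 0.0706, AT3G06070 and SNG1. CA2 was at 229.9 and 229.1 FPKM for the wild type, at 503.6 and 479.8 for apc8-1, and at 564.7 and 529.9 for nrpe1-12. No member of the set was among the nearest loci of another.

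Other marker genes moved with the genotypes too. Of 10 tested clock genes, 5 were higher and 1 lower in apc8-1, and 4 were higher and 5 lower in nrpe1-12, and the levels of the list summed to 214 and 218 FPKM for apc8-1, 211 and 216 for nrpe1-12 and 175 for both Col-0 libraries. The sums of the mutants overlapped with each other and lay above those of the wild type. They add genes that moved in opposite directions, however, and do not show a shared change. Single genes differed between the mutants. All 10 tested clock genes were called there, 6 higher in apc8-1 than in nrpe1-12 and 4 lower. Over all tested loci 7.26% were called higher and 11.4% lower in that comparison. The median change of the list against Col-0 was 0.24 in apc8-1 and -0.155 in nrpe1-12. In apc8-1 only 2 to 3 clock genes were called higher when a Col-0 or apc8-1 library was left out, and 3 with organelle and rRNA genes removed. The morning genes CCA1 and LHY had 48.0 and 21.8 FPKM in nrpe1-12, against 16.7 and 8.51 in Col-0 and 23.5 and 8.85 in apc8-1. PRR5, a gene of later in the day, had 3.69 FPKM in nrpe1-12, against 15.1 in Col-0 and 12.0 in apc8-1. PRR7, with the smallest p of the list in apc8-1, had 78.4 FPKM there, against 50.3 in Col-0 and 62.3 in nrpe1-12. LUX, TOC1 and ELF3 had 9.33, 11.8 and 21.3 FPKM in Col-0. They had 12.6, 15.3 and 25.95 in apc8-1, called higher, and 4.24, 7.63 and 17.1 in nrpe1-12, called lower. In apc8-1 their calls were lost under 3, 6 and 6 alternatives, and that of ELF3 in nrpe1-12 under 3. All 10 nuclear photosynthesis genes were called higher in both mutants, with medians of 0.47 in apc8-1 and 0.52 in nrpe1-12. Their levels summed to 9072 and 9206 FPKM for the wild type, 12750 and 13064 for apc8-1, and 13118 and 13655 for nrpe1-12. With quantile normalization 2 of these calls in apc8-1 (LHCB5, PSBO1) and 3 in nrpe1-12 (LHCA1, LHCB5, PSBO1) were lost. In nrpe1-12, 8 were called without Col-0 replicate 1, 8 without Col-0 replicate 2 and 9 without nrpe1-12 library a. The 10 root markers summed to 22.0 and 22.6 FPKM for the wild type, 18.1 for both apc8-1 libraries, and 16.4 and 19.8 for nrpe1-12. Of the 4 root markers tested, 1 rose and 2 fell in each mutant, with medians of -0.515 in apc8-1 and -0.528 in nrpe1-12. SCR, the gene that rose, lost its call under 4 alternatives in apc8-1 and 5 in nrpe1-12. Without either Col-0 library only 2 root markers passed the filter and neither was called, and without the filter 6 of 10 were lower in each mutant. EXPA18, a root hair gene, averaged 1.61 FPKM in the wild type, 0.0402 for apc8-1 and 0.0846 for nrpe1-12. The 2 root markers that fell, EXPA18 and CASP1, had at most an estimated 25 and 24 fragments in any library. RHD6, a root hair regulator, was listed at 0 in all 4 mutant libraries, but at only 0.668 and 0.415 FPKM in Col-0. That was an estimated 15 fragments at most, and RHD6 was too low to test. In whole seedlings, fewer cells of a type and less RNA per cell cannot be told apart. The part of the clock, leaf and root genes in the changes of the starvation and TPS genes was not tested.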

How the data were processed

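RNA of whole seedlings was measured in 6 libraries, 2 per genotype, after removal of ribosomal RNA, per the labels' protocols. TopHat2 2.0.13, Cufflinks 2.2.1, Cuffnorm 2.2.1 and the TAIR10 genome are named in the submitters' processing notes. The deposited values are the authors' FPKM per locus, and neither fragment totals nor the strand setting is given in the sources used here. Both nrpe1-12 columns carry 1 name, so these libraries are called a and b in table order. Class codes came from the deposited transcript lines. Names came from RefSeq (TAIR10.1), which matched 31393 of 32069 loci with 1 gene name.

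The 17802 loci that reached 1 FPKM in 2 or more libraries were tested on log2(FPKM + 1) with limma 3.58.1 in R 4.3.3 (lmFit, eBayes with an intensity trend), with 3 residual and 4.93 prior degrees of freedom, and p-values were adjusted over all of them. All 8 genes passed this filter. The code was also run on simulated data with independent noise and a small part of the loci changed. These data differ from that setting, so the run does not show how sound the calls are here. Fragments per FPKM were estimated from single-exon loci longer than 1500 bases below 1 FPKM, where 99.2 to 99.8% of values lay within 0.15 of a whole number.

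The genes and the 10 further lists (110 genes, of which 106 were found and 88 tested) were chosen with earlier results of these data known. Lists are described by counts and medians, with no set test. The text names all members and up to 4 called genes per list and mutant with the smallest p, and 3 nearest loci for each member that changed by at least 1. BZIP11, TPS1 to TPS4, TPS6, TPS7, KIN10, ASN3, APL4, RS5, RHD6, LHCB5, PSBO1 and, in apc8-1, APL3 and RS2 were named beyond this rule after their values had been seen. A gene that this rule names is not reported here. Alternatives were other pseudocounts, filters and scalings, no trend, 2 genotypes only, omission of each library and a replicate block. Promoter motifs and protein sequences were not analysed here.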

Additional observations from a re-analysis of the deposited data

How the results depend on the processing

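Over 368 values of single genes under the alternatives, 337 kept their direction and side of the threshold. A further 26 kept their direction but were no longer called, and 5 changed sign. Of these 5, the value of SEN1 in nrpe1-12 had also lost its call. The changes of ASN1, DIN10, BGLU30 and TPS11 against Col-0 were called under all alternatives in both mutants, as were those of SEN1 and TPS5 in apc8-1 and TPS8 in both. The sign changes were SEN1 in nrpe1-12 with quantile normalization (-0.024), and TPS10 in nrpe1-12, which was never called there, with quantile normalization (-0.014), with organelle and rRNA genes removed (-0.114), without Col-0 replicate 1 (-0.001) and without nrpe1-12 library b (-0.024); without nrpe1-12 library a it was 0.024. When a library was left out, 5 to 6 genes were higher and 2 lower in apc8-1, 4 to 5 higher and 1 to 2 lower in nrpe1-12, and 3 higher and 1 to 2 lower in apc8-1 against nrpe1-12. Without the intensity trend 1 gene was lower in apc8-1 than in nrpe1-12. Over all loci, leaving out a library gave 3252 to 5168 calls in apc8-1 in place of 5384, 2710 to 4857 in nrpe1-12 in place of 4679, and 1822 to 2835 between the mutants in place of 3327. The omission of a library leaves fewer samples, and its single partner is assumed to vary like the other groups. After removal of organelle and rRNA genes, the median over all loci was -0.07 in apc8-1 and -0.12 in nrpe1-12, and increases made up 31.9 and 31.4% of calls in place of 46.6 and 51.4%. In the replicate block of Col-0 and apc8-1, 4928 loci were called, and TPS10 was the only one of the 8 genes that lost its call (adjusted p = 0.0541). Deviations of libraries with the same number correlated at r = -0.06 across loci, so the numbers were not taken as pairs. No paired analysis was possible for nrpe1-12 because its columns carry no replicate numbers. Of the 8 genes, TPS5 had the fewest fragments.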
